A study of Mus musculus with 96 samples.

Results

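The enzymes and the transporter that move carbon into and out of hepatic glucose, glycogen and fructose were followed by their messenger RNA. They were pyruvate kinase (Pklr), glucose-6-phosphatase (G6pc), phosphoenolpyruvate carboxykinase (Pck1), fructose-1,6-bisphosphatase (Fbp1), the glucose transporter GLUT2 (Slc2a2), liver glycogen synthase (Gys2), liver glycogen phosphorylase (Pygl) and ketohexokinase (Khk). The 8 genes were taken by symbol from the 25095 gene symbols of each table, with the transcript of highest mean level standing for a gene that had several, and all 8 passed the filter on low values in every table. The values came from RNA-Seq of hepatocytes and liver macrophages (LMs) isolated from male C57BL/6J mice, in 96 libraries that form 32 groups of 3. Each group was 1 of 4 genotypes in 1 cell type at ZT4, ZT10, ZT16 or ZT22, where ZT counts the hours from lights on and lights went off at ZT12. Control mice received AAV-TBG-GFP, a virus that makes green fluorescent protein, and the floxed alleles they carried were not given in the sources used here. RevDKO mice, floxed for REV-ERBα and REV-ERBβ, nuclear receptors that hold down clock genes, and RevScapTKO mice, floxed for these and for SCAP, received AAV-TBG-CRE, in which the hepatocyte promoter TBG drives Cre. Both injections were made at 8 weeks of age. ScapKO mice lost only SCAP from hepatocytes, and their age at injection was not given in the sources used here. Every mouse, Control included, then ate a high-fat, high-sucrose diet for 4 weeks, so no group was on chow. None of the Control, RevDKO and RevScapTKO groups was free of virus. The TBG promoter acts in hepatocytes, so that LMs were not a target of the deletions. Whether the 3 libraries of a group came from 3 mice was not stated for each, so p-values measure the spread between libraries.

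The liver stores glucose as glycogen after a meal and releases it in a fast. Glucose enters and leaves hepatocytes through GLUT2. Glycogen synthase builds the store and glycogen phosphorylase breaks it down. Gluconeogenesis makes new glucose, with Pck1, Fbp1 and G6pc at its controlled steps, and G6pc also frees the glucose that glycogen yields. Pyruvate kinase works in the other direction, closing glycolysis and feeding pyruvate toward fat synthesis, and ketohexokinase lets dietary fructose enter the same route. SCAP escorts the SREBP factors, which switch on lipid synthesis genes, and REV-ERBs repress clock genes such as Arntl through the DNA element AGGTCA.

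Short stretches before the starts of 4 of the genes are shown because they hold the elements through which glucose, cAMP and nuclear receptors are known to act on such promoters. Each covers 250 bases before to 50 bases from a transcript start in the mm9 build and was read on the gene's own strand. Capitals mark matches on either strand to AGGTCA (in capitals as TGACCT where it lies on the opposite strand), to the E-box CACGTG, to the cAMP element ACGTCA, to TATAAA, and to the carbohydrate response element, which is a pair of E-box-like elements and is named ChoRE here.

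Pklr (chr3:88940295-88940594, plus strand): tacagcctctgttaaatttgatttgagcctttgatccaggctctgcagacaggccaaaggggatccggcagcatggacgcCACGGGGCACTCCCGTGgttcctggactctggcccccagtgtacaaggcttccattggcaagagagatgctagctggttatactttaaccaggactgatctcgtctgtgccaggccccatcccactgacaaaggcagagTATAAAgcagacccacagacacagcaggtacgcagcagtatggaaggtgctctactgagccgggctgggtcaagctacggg

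Khk (chr5:31223682-31223981, plus strand): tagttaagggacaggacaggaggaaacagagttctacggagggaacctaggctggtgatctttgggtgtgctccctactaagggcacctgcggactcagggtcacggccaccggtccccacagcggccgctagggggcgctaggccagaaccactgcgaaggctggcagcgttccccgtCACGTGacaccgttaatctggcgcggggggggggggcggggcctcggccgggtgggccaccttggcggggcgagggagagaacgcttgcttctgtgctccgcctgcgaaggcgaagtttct

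Pck1 (chr2:172978324-172978623, plus strand): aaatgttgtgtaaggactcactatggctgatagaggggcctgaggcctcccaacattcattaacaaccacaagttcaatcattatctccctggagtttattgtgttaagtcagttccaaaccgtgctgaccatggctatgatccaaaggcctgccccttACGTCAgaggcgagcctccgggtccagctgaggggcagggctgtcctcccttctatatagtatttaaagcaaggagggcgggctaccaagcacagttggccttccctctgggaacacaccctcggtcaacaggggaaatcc

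G6pc (chr11:101228780-101229079, plus strand): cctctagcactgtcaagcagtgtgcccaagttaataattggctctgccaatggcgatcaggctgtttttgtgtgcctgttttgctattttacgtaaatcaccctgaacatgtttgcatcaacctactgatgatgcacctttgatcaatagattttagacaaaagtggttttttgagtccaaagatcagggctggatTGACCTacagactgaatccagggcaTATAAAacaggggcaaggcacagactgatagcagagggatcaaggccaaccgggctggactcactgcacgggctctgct

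Pklr has 2 annotated starts, and the window shown belongs to the downstream start at 88940545. Its ChoRE match began 170 bases before that start and TATAAA began 31 bases before it. A ChoRE match was held by 32 of the 29682 promoter windows of the same length, or 0.108% of them. The Khk window held CACGTG 71 bases before the start, a motif found in 7.73% of windows. The Pck1 window held ACGTCA 91 bases before the start, present in 8.35% of windows. In the G6pc window, TGACCT lay 54 and TATAAA 29 bases before the start; AGGTCA was found in 14.6% and TATAAA in 12.5% of windows, and the start used in the table lay 155 bases from the nearest GENCODE start. AGGTCA was also found 21 bases before the start of Slc2a2, 128 bases before that of Pygl and 151 bases before the upstream start of Pklr, while no motif searched was found in the windows of Fbp1 and Gys2. These matches describe letters only; none of these libraries measured binding.

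The genes lie apart from each other. In mm9, Pklr spans chr3:88940064-88950516 on the plus strand, Slc2a2 chr3:28596825-28627282 on the plus strand, G6pc chr11:101229030-101239217 on the plus strand and Pck1 chr2:172978574-172984775 on the plus strand. Khk spans chr5:31223932-31233621 on the plus strand, Fbp1 chr13:62966113-62989642 on the minus strand, Gys2 chr6:142371133-142421629 on the minus strand and Pygl chr12:71291802-71328670 on the minus strand. Among them, 3 share sequence with an annotated gene on the other strand, and the sources used here do not say whether counting used strand: Hcn3 overlaps the 3′ end of Pklr by 521 bases, 1700112D23Rik runs across 25694 bases of Slc2a2, and Gm17367 covers 140 bases of Fbp1. The 2 Pklr transcripts, with mean levels of 609.4 and 608.9 in hepatocytes, and the 4 Khk transcripts, at 836 to 936, overlap almost wholly, so that isoforms could not be told apart.

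The level is RPKTM, 10 times the RPKM, in which reads are scaled to transcript length and to all mapped reads, and was quantile normalized within each table, so that levels were compared only inside a table and the sequencing depth is unknown. The gene-level checks of the labels were mixed. Scap fell in the hepatocyte libraries labelled RevScapTKO, to a mean of 209 from 536 RPKTM in RevDKO (log2 change −1.40, limma adjusted p = 9.77e-09). Arntl, a REV-ERB target, rose in RevDKO to 139 from 60.8 RPKTM in Control (log2 change 1.83, limma adjusted p = 1.6e-11). The summed exons of Nr1d1 (REV-ERBα) were not lower in the libraries labelled RevDKO, with 138 against 90.7 RPKTM in Control (log2 change 1.55, limma adjusted p = 8.87e-05), nor in those labelled RevScapTKO, with 140.3. Nr1d2 (REV-ERBβ) read 312 in RevDKO and 353 in RevScapTKO against 228 in Control, and a gene-level value does not show whether the floxed part was lost. In the hepatocyte table all 12 macrophage markers rose in RevScapTKO against both other genotypes. Summed over the 12, they made up 259 to 3449 RPKTM (median 965) in Control libraries, 438 to 2593 (median 1178) in RevDKO and 1030.1 to 6879 (median 3176) in RevScapTKO. Of 8 markers each, endothelial ones rose for 6 and stellate ones for 7 against RevDKO, while 5 of 12 hepatocyte markers fell and 1 rose. No macrophage marker was at 0 in any of these 36 libraries. Replicate 2 of RevScapTKO at ZT4 and replicate 2 of RevScapTKO at ZT22 stood apart from the other hepatocyte libraries, with mean correlations of 0.894 and 0.902. Calls are therefore given also with a macrophage-marker score as a covariate and without these 2 libraries; in bulk libraries, fewer cells of a type and less RNA per cell cannot be told apart.

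Each of the 8 genes was well above the filter of 5 RPKTM in hepatocytes, and Pck1 stood highest. In Control hepatocytes Pck1 averaged 4751 ± 1605 RPKTM (SD, n = 12 libraries over the 4 times), followed by G6pc at 2176 ± 801, Pygl at 1882 ± 354, Slc2a2 at 1862 ± 437 and Fbp1 at 1811 ± 336. Neighbours among the last 4 in this order differed by less than the SD of either. Khk followed at 1019 ± 427, Pklr at 712 ± 387 and Gys2 at 551 ± 143, and Khk and Pklr differed by less than the SD of either, while the difference of Pklr and Gys2 was above the SD of Gys2 and below that of Pklr.

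**Figure D1:**
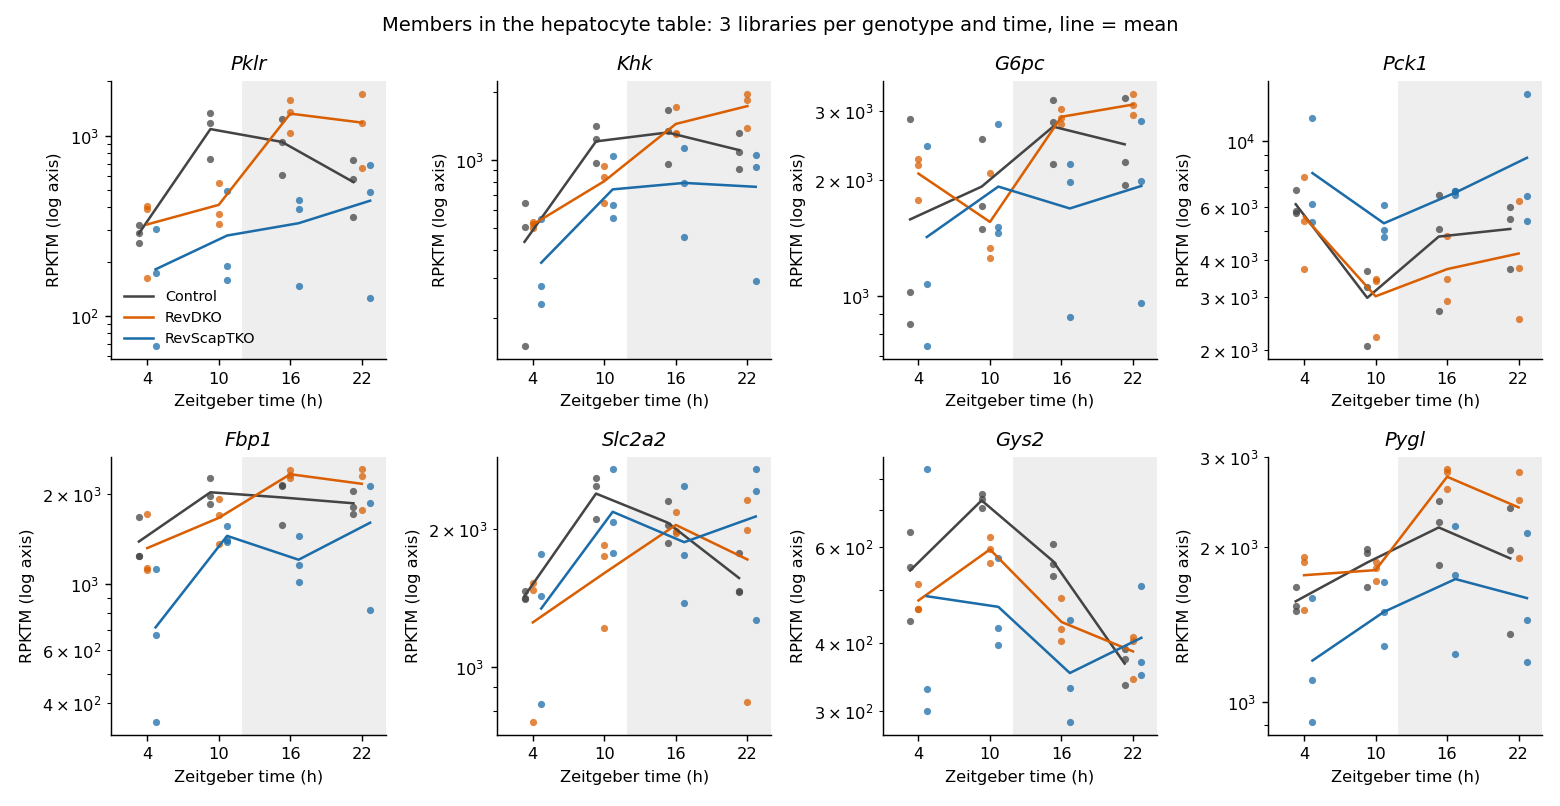
Level of the 8 genes (RPKTM, log axis) in each hepatocyte library against ZT, for Control, RevDKO and RevScapTKO; points are libraries and lines join the means of 3. Pklr in RevScapTKO stayed between 67.5 and 691, and Pck1 in RevScapTKO between 4781 and 14409.

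Against Control, none of the 8 genes changed its mean level over the 4 times in RevDKO hepatocytes, in a limma fit in which 4.43% of the 13326 genes tested were called at an adjusted p under 0.05 (8 of 8 at an adjusted p of 0.386 or more; median log2 change 0.05). Against RevDKO, RevScapTKO hepatocytes had lower Pklr, Khk, Fbp1, Pygl and G6pc and higher Pck1, which made 6 of 8 called beside 26.2% of all genes tested (12.7% lower, 13.5% higher). Against Control, 6 of 8 were also called in RevScapTKO, beside 35.9% of all genes tested (18.7% lower, 17.3% higher): Pklr, Khk, Fbp1, Pygl and Gys2 lower and Pck1 higher. The median log2 change of the 8 genes was −0.54 against RevDKO and −0.37 against Control, where all genes tested had medians of −0.03 and −0.04. With the macrophage-marker score as a covariate none of the 8 kept its call in either comparison, and all genes called fell to 330 (2.48%) and 806 (6.05%). With the 2 outlying libraries left out, 6 genes were called against RevDKO, with Gys2 gained and G6pc lost, beside 20.2% of all genes tested, and 3 against Control, namely Pklr, Fbp1 and Gys2, beside 31.0%. RevScapTKO libraries entered both comparisons, and RevDKO and Control libraries each entered 2 of the 3, so the comparisons are not independent.

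**Figure D2:**
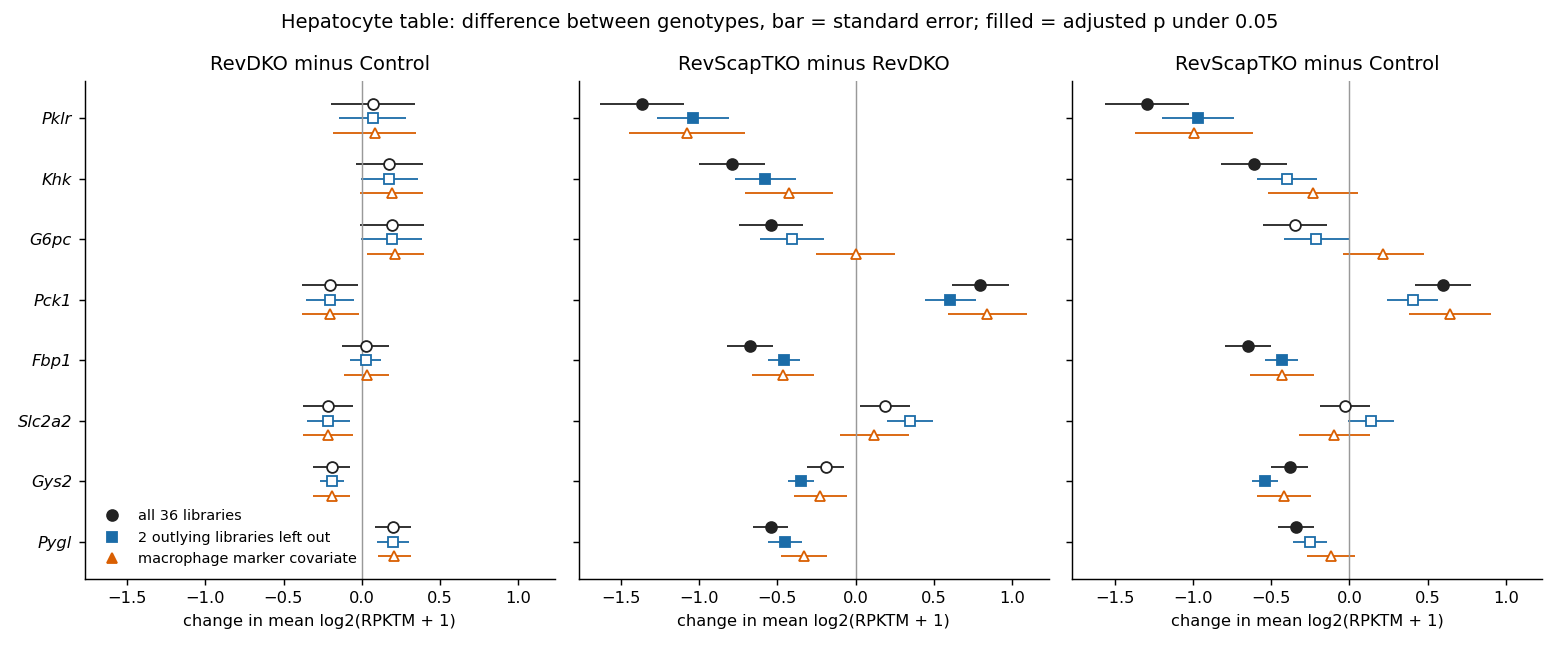
Log2 change in mean hepatocyte level (limma estimate, bars 1 SE) for each of the 8 genes in the 3 genotype comparisons. Pklr lies lowest, at −1.37 against RevDKO and −1.30 against Control, and Pck1 is the gene on the right of 0 in both, at 0.80 and 0.60.

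Pklr, which makes the pyruvate that leaves glycolysis, showed the widest daily range of the 8 genes and the largest change of the 8 in RevScapTKO. In Control hepatocytes it read 317, 252 and 289 RPKTM at ZT4, 742, 1339 and 1182 at ZT10, 606, 1239 and 924 at ZT16, and 352, 574 and 732 at ZT22. In RevDKO it read 409, 163 and 392 at ZT4, 324, 369 and 545 at ZT10, 1585, 1031 and 1361 at ZT16, and 1711, 663 and 1173 at ZT22. Control was thus high from ZT10 and RevDKO only from ZT16, and at ZT10 the 3 RevDKO libraries all lay below the 3 Control libraries. In RevScapTKO Pklr read 304, 67.5 and 172 at ZT4, 189, 158 and 490.1 at ZT10, 394, 439.5 and 146 at ZT16, and 691, 126 and 489 at ZT22. These values overlapped those of both other genotypes at ZT4 and ZT22, but lay under every Control library at ZT10 and ZT16 and under every RevDKO library at ZT16. The mean of 12 libraries was 712 in Control, 810 in RevDKO and 305 in RevScapTKO. The log2 change was −1.37 ± 0.27 (SE; limma adjusted p = 0.000365) against RevDKO and −1.30 ± 0.27 (limma adjusted p = 0.000375) against Control. It was −1.08 (limma adjusted p = 0.151) and −0.99 (limma adjusted p = 0.126) with the macrophage-marker covariate, and −1.04 and −0.97, both called, without the 2 outlying libraries. At single times Pklr was called at ZT10 against Control (log2 change −2.10, limma adjusted p = 0.0174, beside 4.35% of genes) and at ZT16 against RevDKO (log2 change −2.15, limma adjusted p = 0.0291, beside 1.37% of genes); the call at ZT16 was lost (limma adjusted p up to 0.267) when any 1 of the 3 RevDKO libraries or replicate 3 of RevScapTKO at that time was left out, and that at ZT10 (up to 0.139) when replicate 2 or 3 of Control or replicate 1 or 2 of RevScapTKO was.

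Khk, which phosphorylates fructose on its way into glycolysis, followed a course like that of Pklr. Control libraries read 646, 149 and 507 RPKTM at ZT4, 975, 1417 and 1239 at ZT10, 957, 1667 and 1351 at ZT16, and 914, 1087 and 1321 at ZT22. RevDKO libraries read 498, 523 and 533 at ZT4, 644, 839 and 937 at ZT10, 1720.0, 1304 and 1314 at ZT16, and 1849, 1968 and 1387 at ZT22. All 3 RevDKO libraries were below all Control libraries at ZT10 and above them at ZT22. RevScapTKO libraries read 548, 229 and 276 at ZT4, 630.2, 552 and 1043 at ZT10, 792, 1128 and 456 at ZT16, and 1058, 291 and 934 at ZT22, all below RevDKO at ZT16 and ZT22. The mean of Khk was 1019 in Control, 1126 in RevDKO and 661.5 in RevScapTKO. Its log2 change was −0.79 ± 0.21 (SE; limma adjusted p = 0.00659) against RevDKO and −0.61 ± 0.21 (limma adjusted p = 0.0244) against Control. The second call was lost without replicate 1 of Control at ZT4, or without replicate 2 at ZT4, replicate 3 at ZT16 or replicate 2 at ZT22 of RevScapTKO, where the adjusted p rose to at most 0.0626. With the marker covariate the change was −0.43 (limma adjusted p = 0.625) against RevDKO, and at no single time was Khk called.

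Pck1, which commits oxaloacetate to gluconeogenesis, was the gene that rose. Control libraries read 5836, 5724 and 6877 RPKTM at ZT4, 3663, 3247 and 2054 at ZT10, 5069, 6607 and 2691 at ZT16, and 5471, 6031 and 3739 at ZT22. RevDKO libraries read 3739, 5418 and 7592 at ZT4, 2215, 3447 and 3408 at ZT10, 2907, 4827 and 3447 at ZT16, and 2547, 3761 and 6304 at ZT22. Both genotypes had their lowest mean at ZT10, and they overlapped at every time. RevScapTKO libraries read 5357, 11909 and 6178 at ZT4, 4781, 5027 and 6110.1 at ZT10, 6607, 6781 and 6781 at ZT16, and 5418, 14409 and 6542 at ZT22. They lay above all RevDKO libraries at ZT10 and ZT16 and above all Control libraries at ZT10. The 2 highest values, 11909 and 14409, belonged to the 2 libraries that stood apart. The mean of Pck1 was 4751 in Control, 4134 in RevDKO and 7159 in RevScapTKO. For Pck1 the log2 change was 0.80 ± 0.18 (SE; limma adjusted p = 0.00158) against RevDKO and 0.60 ± 0.18 (limma adjusted p = 0.0107) against Control. Without the 2 outlying libraries it was 0.60 (limma adjusted p = 0.0091) against RevDKO and 0.40 (limma adjusted p = 0.0603) against Control. With the marker covariate the estimate against RevDKO was 0.84 ± 0.25 (limma adjusted p = 0.0754).

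Fbp1, the step that removes a phosphate from fructose-1,6-bisphosphate, fell where Pck1 rose. Control libraries read 1686, 1239 and 1245 RPKTM at ZT4, 1983, 2264 and 1853 at ZT10, 1579, 2129.7 and 2152 at ZT16, and 1724, 1818 and 2059.8 at ZT22. RevDKO libraries read 1118, 1716 and 1129 at ZT4, 1367, 1708 and 1929 at ZT10, 2419, 2274 and 2319 at ZT16, and 2311, 2427 and 1775 at ZT22. The RevDKO values were above all Control values at ZT16 and overlapped them elsewhere. RevScapTKO libraries read 1128, 344 and 676 at ZT4, 1383, 1406 and 1567 at ZT10, 1448, 1160.0 and 1016 at ZT16, and 2129.7, 822 and 1869.7 at ZT22. They lay below every Control library at ZT4, ZT10 and ZT16, and at ZT22 they reached into the range of both other genotypes. The mean of Fbp1 was 1811 in Control, 1874 in RevDKO and 1246 in RevScapTKO. Fbp1 changed by −0.68 ± 0.15 (log2, SE; limma adjusted p = 0.00113) against RevDKO and −0.65 ± 0.15 (limma adjusted p = 0.000989) against Control, and it was −0.46 and −0.43, both called, without the 2 outlying libraries. With the marker covariate it was −0.46 (limma adjusted p = 0.324) and −0.43 (limma adjusted p = 0.245). At ZT4 Fbp1 was called against Control (log2 change −1.10, limma adjusted p = 0.0103, beside 18.9% of genes) and against RevDKO (log2 change −1.01, limma adjusted p = 0.0291, beside 9.28% of genes), and neither call stood once the library at 344, replicate 2 of RevScapTKO, was left out. The call against Control was lost also without replicate 1 of Control at that time, and the call against RevDKO without replicate 2 of RevDKO or replicate 3 of RevScapTKO, with limma adjusted p-values of up to 0.298.

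G6pc, which releases free glucose, was the weakest of the called genes. Control libraries read 2864, 1027 and 846 RPKTM at ZT4, 1495, 2547 and 1714 at ZT10, 2816, 3205 and 2201 at ZT16, and 1934, 2221 and 3247 at ZT22. RevDKO libraries read 1775, 2186 and 2257 at ZT4, 1255, 1328 and 2082 at ZT10, 2889, 3052 and 2776 at ZT16, and 2933, 3334 and 3108 at ZT22. RevDKO was tight and high at the 2 night times, where Control spread from 1934 to 3247. RevScapTKO libraries read 2447, 1076 and 742 at ZT4, 1453, 1513 and 2791 at ZT10, 1973, 2201 and 881 at ZT16, and 2828, 962 and 1988 at ZT22, all under RevDKO at ZT16 and ZT22. The log2 change was −0.54 ± 0.21 (SE; limma adjusted p = 0.0495) against RevDKO and −0.35 ± 0.21 (limma adjusted p = 0.189) against Control. The call against RevDKO was lost in 27 of the 36 fits that left out a single library, and with the marker covariate the estimate was 0.00 (limma adjusted p = 1.0).

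Slc2a2, which carries glucose across the hepatocyte membrane in both directions, was not called between genotypes. Control libraries read 1461, 1406 and 1414 RPKTM at ZT4, 2106, 2486 and 2587 at ZT10, 1865, 2299.6 and 2037 at ZT16, and 1461, 1455 and 1771 at ZT22. RevDKO libraries read 1468, 755 and 1525 at ZT4, 1743, 1214 and 1849 at ZT10, 2186, 1964 and 1978 at ZT16, and 2319, 837 and 1992 at ZT22. Replicate 2 of RevDKO was low at ZT4, ZT10 and ZT22, and at ZT10 all 3 RevDKO libraries were below all Control libraries. RevScapTKO libraries ran from 827 to 2704, with a median of 1771, and overlapped both other genotypes at each time. The log2 change was 0.19 ± 0.16 (SE; limma adjusted p = 0.404) against RevDKO and −0.03 ± 0.16 (limma adjusted p = 0.909) against Control.

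The 2 glycogen enzymes differed. Gys2, which lengthens glycogen, read 439, 549.9 and 639 RPKTM in Control at ZT4, 734, 750.0 and 705 at ZT10, 558, 606 and 529 at ZT16, and 389.9, 335 and 373 at ZT22. RevDKO libraries read 513, 460.2 and 461 at ZT4, 624, 560.4 and 595 at ZT10, 403, 425 and 482 at ZT16, and 403, 410.4 and 343 at ZT22. The replicates of Gys2 were close, and both genotypes peaked at ZT10, with RevDKO below every Control library at ZT10 and ZT16. RevScapTKO libraries read 299.6, 832 and 328 at ZT4, 573, 426 and 397 at ZT10, 439.7, 286 and 329.7 at ZT16, and 349, 507 and 369 at ZT22, and the value of 832 came from a library that stood apart. The log2 change of Gys2 in RevScapTKO was −0.38 ± 0.12 (SE; limma adjusted p = 0.0125) against Control and −0.19 ± 0.12 (limma adjusted p = 0.238) against RevDKO. Without the 2 outlying libraries it was −0.54 and −0.35 (limma adjusted p = 0.00315), and both were called.

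Pygl, which frees glucose units from glycogen, read 1674, 1535 and 1501 RPKTM in Control at ZT4, 1674, 1983 and 1948 at ZT10, 1849, 2466 and 2246 at ZT16, and 1356, 1973 and 2381 at ZT22. RevDKO libraries read 1916, 1869.7 and 1509 at ZT4, 1716, 1874 and 1827 at ZT10, 2838, 2597 and 2801 at ZT16, and 2801, 2475 and 1903 at ZT22. The 3 RevDKO libraries at ZT16 all lay above Control. RevScapTKO libraries read 1593, 913 and 1104 at ZT4, 1495, 1283 and 1714 at ZT10, 2201, 1763 and 1240.5 at ZT16, and 2136, 1198 and 1445 at ZT22, below every RevDKO library at ZT10 and ZT16. The log2 change was −0.54 ± 0.11 (SE; limma adjusted p = 0.000688) against RevDKO, −0.33 (limma adjusted p = 0.358) with the marker covariate and −0.45, called, without the outlying libraries. Against Control it was −0.34 ± 0.11 (limma adjusted p = 0.0184), and −0.25 (limma adjusted p = 0.0824) without the outlying libraries.

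Among the 8 genes, most of the separations between single libraries lay at ZT10 and ZT16. At ZT10, 4 of 8 genes, Pklr, Khk, Gys2 and Slc2a2, had all RevDKO libraries below all Control libraries, beside 9.09% of genes tested, yet none was called at ZT10 by limma, where 158 of 13326 genes were. At ZT16, 5 of 8 genes, Pklr, Khk, G6pc, Fbp1 and Pygl, had all RevScapTKO libraries below all RevDKO libraries, beside 9.62% of genes tested, and Pck1 had them above, beside 8.72%. At ZT4 none of the 8 separated RevDKO from Control or RevScapTKO from RevDKO. The shares of all genes that separated at ZT4 and ZT22 are not given here. Whether the whole table shared this course over time can therefore not be told. In the single-time tests not yet named none of the 8 was called by limma. For RevDKO against Control 78, 40 and 65 of 13326 genes were called at ZT4, ZT16 and ZT22. For RevScapTKO against RevDKO 0.908% were called at ZT10 and 2.35% at ZT22, and for RevScapTKO against Control 3.24% at ZT16 and 3.62% at ZT22.

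Daily rhythm was called with JTK_CYCLE, a rank test for a repeating pattern, run as the study ran it, with each series of 12 libraries entered 2 times. Entering the data again makes its p-values too small, so the calls are set beside the same test with the series entered once and beside a 24-h test in limma. In Control hepatocytes 5 of 8 genes were rhythmic, beside 29.0% of genes. Gys2 peaked at ZT10 with a ratio of highest to lowest mean of 1.99, Pklr at ZT13 with 3.80, Slc2a2 at ZT13 with 1.68, Khk at ZT16 with 3.05 and Pck1 at ZT1 with 2.06. The 4 genes other than Pck1 stayed rhythmic whichever library was left out, and Pck1 in only 2 of 12 cases. In RevDKO 7 of 8 were rhythmic, beside 29.7% of genes. Pklr, Khk, Fbp1, Slc2a2 and Pygl all peaked at ZT19, with ratios of 4.12, 3.35, 1.77, 1.63 and 1.56, G6pc peaked at ZT22 with 2.01, and Gys2 stayed at ZT10 with 1.54. With a library left out the calls of Slc2a2 and Gys2 in RevDKO each remained in 10 of 12 cases, and those of the other 5 in every case. The called peak of Pklr and Slc2a2 thus lay 6 h later in RevDKO than in Control and that of Khk 3 h later, on a grid of possible peaks 3 h apart and samples 6 h apart. In RevScapTKO only Khk was rhythmic, at ZT16 with 2.26, or 1 of 8 beside 20.8% of genes. Its call remained in 5 of 12 cases with a library left out and was lost without the 2 outlying libraries, and the other 7 genes had adjusted p-values of 0.0703 to 1.0.

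**Figure D3:**
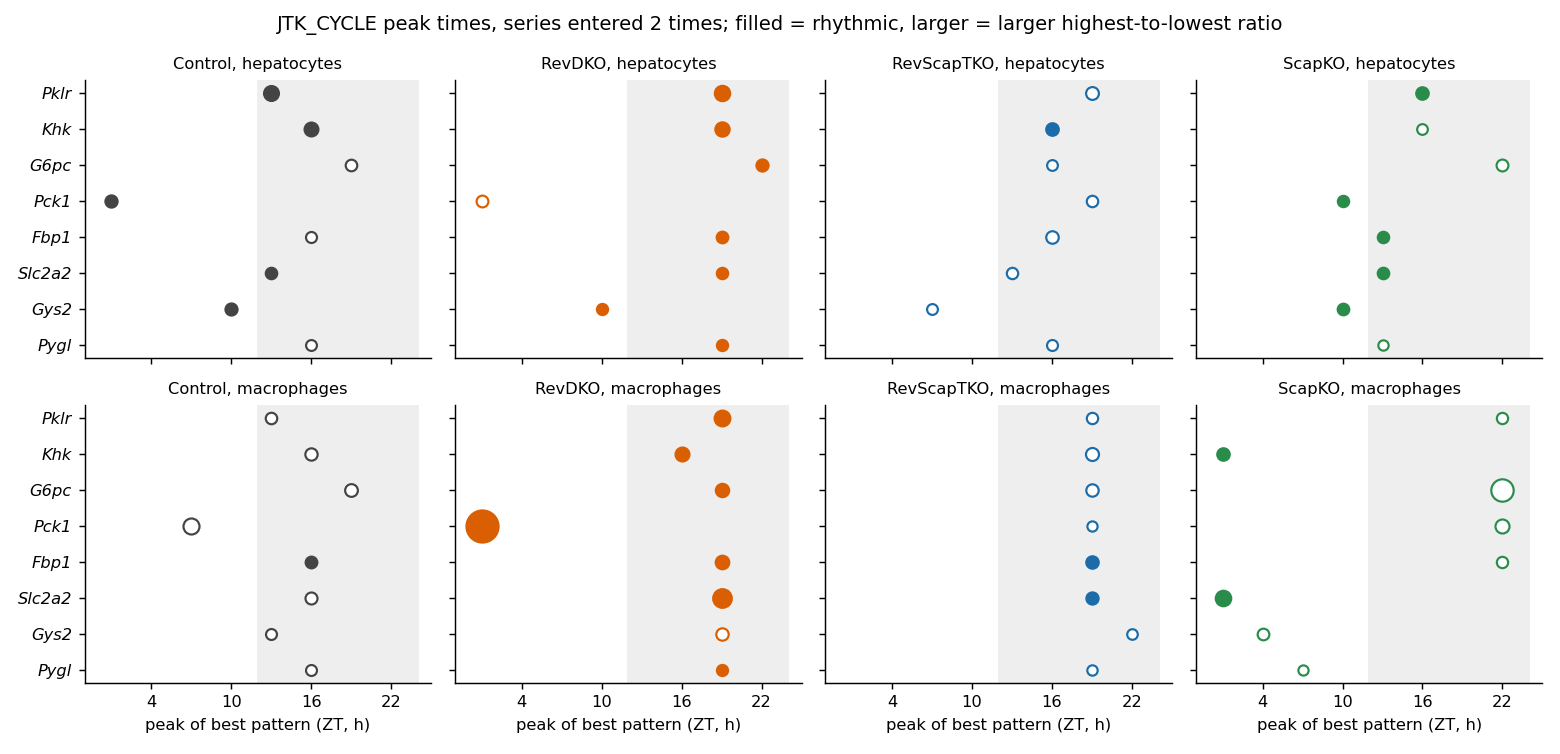
Peak time called by JTK_CYCLE (ZT in hours) for each of the 8 genes in each genotype and cell type; filled symbols are rhythmic and open symbols are not. In hepatocytes the called peak of Pklr lies at ZT13 in Control and ZT19 in RevDKO, and that of Gys2 at ZT10 in both. The change in rhythm did not pass its test for either gene.

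With the series entered once, rhythm remained for 1 of 8 genes in Control (Gys2, beside 9.59% of genes), for 6 of 8 in RevDKO (all but Pck1 and Slc2a2, beside 7.9%) and for 0 of 8 in RevScapTKO (beside 2.15%). The limma test called Gys2 and Khk in Control (beside 8.29%), Pklr and Khk in RevDKO (beside 4.08%) and none in RevScapTKO (beside 0.683%). The change in rhythm itself did not pass for any of the 8 genes. Between RevDKO and Control 0.203% of genes passed, and Pklr came nearest among the 8 (unadjusted p = 0.00946, limma adjusted p = 0.669). Between RevScapTKO and RevDKO 0.0% of genes passed in limma, with 674 genes at an unadjusted p under 0.05, and the smallest p of the 8 was 0.13 for Khk. A shifted or lost rhythm is therefore not shown by test for any of these genes. The summed macrophage markers in the same libraries also moved with time. They ran from 259 to 726 RPKTM at ZT4 and from 2384 to 3449 at ZT22 in Control libraries. In RevDKO they ran from 538 to 839 and from 1650 to 2593, and in RevScapTKO from 1052 to 2732 and from 4147 to 6879. With their score as a covariate the limma 24-h test called 2.72% of genes in Control, 1.18% in RevDKO and 2.66% in RevScapTKO. How the 8 genes fared in that fit is not given here, and JTK_CYCLE was not run with the score.

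The genes whose log2 levels most resembled each member over the 36 hepatocyte libraries were found by Pearson's r, which describes shared differences between genotypes, times and libraries together. For Pklr they were Hcn3 (r = 0.959), Elovl6 (0.883) and Shroom1 (0.875). Hcn3 is the gene that overlaps Pklr in GENCODE, while in the table's own models 180 bases lie between them, so the likeness of this pair and reads that cross from Pklr cannot be told apart. For Khk they were Slc37a4 (r = 0.905), the carrier that brings glucose-6-phosphate to G6pc, then Dgcr2 (0.864) and Shroom1 (0.859). For G6pc they included Slc30a10 (r = 0.781) and Ceacam1 (0.752). For Pck1 they were Wdr26 (r = 0.804), Ctcflos (0.770) and Nvl (0.718). For Fbp1 they were Serpina1d (r = 0.897), Slc10a1 (0.888) and Timd2 (0.881). For Slc2a2 they were Cers2 (r = 0.825), Aadac (0.798) and Mfsd8 (0.789). For Gys2 they included Gstt2 (r = 0.792) and the clock gene Per3 (0.770). For Pygl they were Tmie (r = 0.855) and the lipid synthesis genes Acaca (0.853) and Thrsp (0.840).

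The wider pathways held 69 other genes, of which 66 were tested in hepatocytes. In RevDKO against Control 5 of 66 rose and 1 fell, beside 2.0% higher and 2.43% lower of all genes tested. Got1 (log2 change 0.75), which serves the malate-aspartate shuttle, and the fructose transporter Slc2a5 (0.71) rose. So did Pgm1 (0.59), Ugp2 (0.53), which leads glucose-1-phosphate to glycogen, and pyruvate carboxylase Pcx (0.33). Pgm1 was low, at 17.6 RPKTM in RevDKO and 11.8 in Control. With a library left out the Pcx call was lost in 15 of 36 cases (limma adjusted p up to 0.0977) and the Pgm1 call in 12 of 36 (up to 0.0781). Txnip, a gene known to respond to glucose, fell (log2 change −1.01, limma adjusted p = 0.00745). In RevScapTKO against RevDKO 5 of 66 rose and 22 fell, beside 13.5% higher and 12.7% lower of all genes tested, with a median log2 change of −0.19 beside −0.03. Among the largest changes, Pdk1, which restrains pyruvate dehydrogenase, changed by −1.56 (limma adjusted p = 5.94e-08), Got1 by −1.22, transketolase Tkt by −1.05, the brain glycogen phosphorylase Pygb by 1.03, the glycogen targeting subunit Ppp1r3b by −1.0 and Rpia by −0.94. Over the lists, to be read against the same 12.7% and 13.5%, 5 of 7 genes of pyruvate entry fell (Pdk1, Pdk2, Pdk4, Pdha1 and Mpc1), 5 of 10 of gluconeogenesis, 3 of 7 of the pentose phosphate route, 2 of 15 of glycogen, 2 of 8 of fructose and 5 of 19 of glycolysis, while 4 of glycolysis and 1 of glycogen rose. With the macrophage-marker covariate Pdk1 (−1.14), Got1 (−1.11) and Tkt (−1.23) kept their calls and Pygb, Ppp1r3b and Rpia did not.

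Against Control, 9 of 66 rose and 19 fell in RevScapTKO, beside 17.3% higher and 18.7% lower of all genes tested. Pdk1 changed by −1.54, Pygb by 1.09, Tkt by −0.98, Pgm1 by 0.93, Gapdh by −0.93 and Pck2, the mitochondrial counterpart of Pck1, by 0.84. Gapdh has many near-identical pseudogene copies and its value is uncertain. Pck2 was low, at 10.5 RPKTM in RevScapTKO and 5.17 in Control, and its call was lost without the outlying libraries (limma adjusted p = 0.0961) and with the marker covariate, as were those of Pygb and Gapdh with the covariate.

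The 8 genes were also read in the LM libraries, whose table was normalized on its own. These libraries held much hepatocyte RNA. The summed hepatocyte markers were 82030 to 3217250 RPKTM in Control (median 117733), 70109 to 163541 in RevDKO and 49159 to 1629350 in RevScapTKO, against 3486 to 41522, 4273 to 34745 and 5400 to 33807 for the macrophage markers, so levels in LMs and RNA from hepatocytes cannot be told apart. The 5 libraries that stood apart here were replicate 2 of Control at ZT22 and, of RevDKO, replicate 2 at ZT10, replicates 1 and 2 at ZT16 and replicate 2 at ZT22. In RevDKO against Control 0 of 8 genes were called by limma, beside 0.574% of the 13947 genes tested, of which 1934 had an unadjusted p under 0.05. In RevScapTKO against RevDKO 2 of 8 fell, beside 3.0% of genes called and 1.78% lower. In RevScapTKO against Control 1 of 8 fell, beside 3.76% of genes called and 1.38% lower. Of the 12 hepatocyte markers in these libraries, 4 fell in RevScapTKO against RevDKO and 3 against Control, and none rose. No macrophage marker was called in either comparison.

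Fbp1 in the LM libraries read 202, 188 and 259 RPKTM in Control at ZT4, 211, 323 and 286 at ZT10, 242, 464 and 462 at ZT16, and 146, 413 and 420.3 at ZT22. RevDKO read 169.7, 188 and 192 at ZT4, 219, 239.6 and 341 at ZT10, 465, 381 and 606 at ZT16, and 480.3, 565 and 539 at ZT22. RevScapTKO read 179, 73.5 and 116 at ZT4, 139, 144 and 194 at ZT10, 153, 290.1 and 157 at ZT16, and 352, 192 and 265 at ZT22. All 3 RevScapTKO libraries were below RevDKO at ZT10, ZT16 and ZT22. The log2 change of Fbp1 was −0.93 ± 0.18 (SE; limma adjusted p = 0.00157) against RevDKO. With a hepatocyte-marker score as a covariate it was −0.94 (limma adjusted p = 0.00398), and without the outlying libraries −1.02 (limma adjusted p = 0.00763). Against Control it was −0.70 (limma adjusted p = 0.0219), a call lost without the outlying libraries (limma adjusted p = 0.0541), and also when replicate 2 of Control at ZT22 or replicate 2 of RevScapTKO at ZT4 was left out or RevDKO was kept out of the fit.

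Pygl, the other gene that fell in LM libraries, averaged 468 RPKTM in RevDKO and 309 in RevScapTKO, a log2 change of −0.61 ± 0.15 (SE; limma adjusted p = 0.0121). It was −0.61 (limma adjusted p = 0.0225) with the hepatocyte-marker covariate and −0.64 (limma adjusted p = 0.052) without the outlying libraries. The RevScapTKO libraries of Pygl ran from 194 to 462 and those of RevDKO from 345 to 648. Pklr averaged 129 RPKTM in Control LMs, 201 in RevDKO and 72.9 in RevScapTKO, and its log2 change against RevDKO, −1.27 ± 0.40 (SE; limma adjusted p = 0.0829), was not called; it was called without the outlying libraries (−1.66, limma adjusted p = 0.0274), with a pseudocount of 5 (limma adjusted p = 0.048), and with 1 library left out in 2 of 36 cases, replicate 2 of RevDKO at ZT10 (limma adjusted p = 0.00496) and replicate 3 of RevScapTKO at ZT10 (limma adjusted p = 0.0345). Pck1 held a single extreme value, 73347 RPKTM in replicate 2 of RevDKO at ZT22, where the other RevDKO libraries read 381 to 3455. The levels of G6pc, Khk, Slc2a2 and Gys2 were not called between genotypes, with limma adjusted p-values of 0.122 or more.

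**Figure D4:**
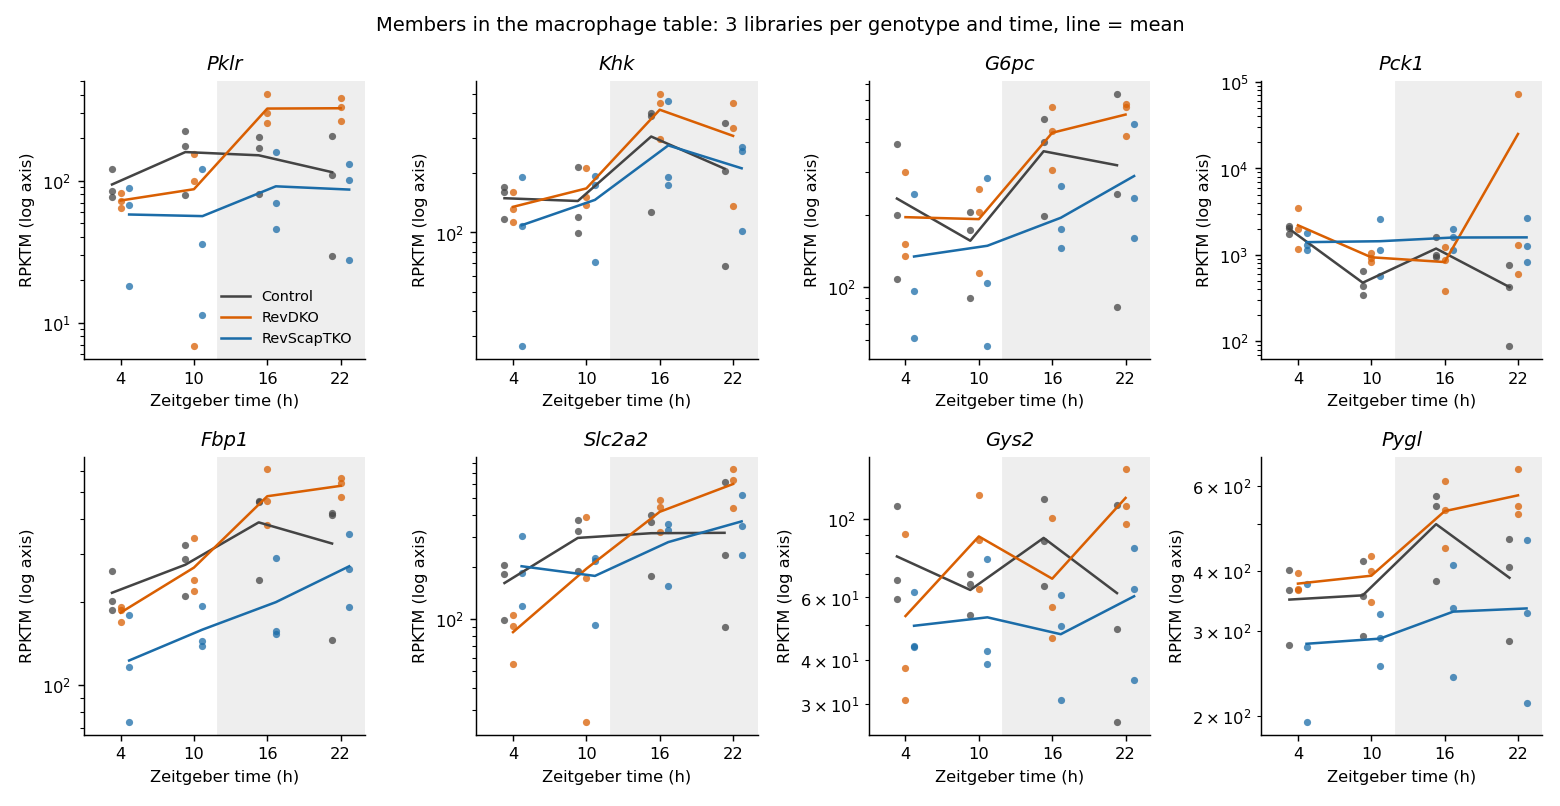
Level of the 8 genes (RPKTM, log axis) in each LM library against ZT for Control, RevDKO and RevScapTKO; points are libraries and lines join the means of 3. Fbp1 in RevScapTKO lies at 73.5 to 352, and the Pck1 point of 73347 in RevDKO at ZT22 stands far above the rest.

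Rhythm calls in LM libraries were few except in RevDKO. There 7 of 8 genes were rhythmic, beside 28.2% of genes, and Gys2 was not. Pklr, G6pc, Fbp1, Slc2a2 and Pygl were called with a peak at ZT19, as were Pklr, Fbp1, Slc2a2 and Pygl in RevDKO hepatocytes. In these RevDKO LM libraries the summed hepatocyte markers had medians of 78847, 123169, 105786 and 162964 RPKTM at ZT4, ZT10, ZT16 and ZT22. Medians of the summed macrophage markers were 28216, 16825, 7391 and 6895 at the same times. The part of these markers in the JTK_CYCLE calls was not tested. The Pck1 call remained in 3 of 12 cases with a library left out and that of Pygl in 11 of 12, lost without replicate 2 at ZT22. With the outlying libraries left out, 4 of them RevDKO, a single RevDKO library remained at ZT16. Calls of rhythm are therefore not given for that setting. The best peaks of Pklr, Fbp1 and Slc2a2 moved there to ZT16, the time that held that single library. The peak time shared with RevDKO hepatocytes then held for Pygl alone. For Pck1 the ratio of highest to lowest mean was 2.34 in that setting and 30.3 with all libraries. In Control LMs 1 of 8, Fbp1, was rhythmic (beside 20.2%), and in RevScapTKO LMs 2 of 8, Fbp1 and Slc2a2, both at ZT19 (beside 15.4%). The summed hepatocyte markers in Control LMs had medians of 95607, 86901, 149838 and 147872 RPKTM at ZT4, ZT10, ZT16 and ZT22. In RevScapTKO LMs these medians were 82076, 66583, 125926 and 153093, and their part in the calls was not tested. With a library left out the call of Fbp1 remained in 8 of 12 cases in Control, and in RevScapTKO those of Fbp1 and Slc2a2 in 5 and 8 of 12. With the series entered once the counts were 0 in Control, 5 in RevDKO and 0 in RevScapTKO, beside 2.18%, 4.72% and 1.8% of genes. The limma test called Pklr, Fbp1 and Slc2a2 in RevDKO, beside 2.53% of genes, and none in Control (beside 0.0502%) or RevScapTKO (beside 0.0789%). With the hepatocyte-marker score as a covariate this test called 0.229% of genes in RevDKO, and the calls of the 3 genes in that fit are not given here. The limma test is likewise not given without the outlying libraries. The change in rhythm did not pass for any of the 8 genes, and the smallest unadjusted p was 0.00983 for Pklr between RevDKO and Control (limma adjusted p = 0.891), where 0.0% of genes passed.

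The ScapKO libraries form 2 tables of their own and were read only within them. The cell type field of the ScapKO hepatocyte libraries names liver macrophages while their titles name hepatocytes; in them the summed hepatocyte markers were 538906 to 1553330 RPKTM and the macrophage markers 567 to 3596, with Cd68 the single macrophage marker at 0 in any library; of the stellate markers Col1a1 was. In ScapKO hepatocytes the order of mean levels was Pck1 (18749 RPKTM), G6pc (6291), Fbp1 (4834), Pygl (3195), Slc2a2 (3058), Khk (2106), Gys2 (1072) and Pklr (1049.6). Pck1 was again highest and Gys2 and Pklr lowest. Replicate 2 at ZT22 stood apart, with a mean correlation of 0.897, and gave the highest G6pc value, 15244, and the lowest of Fbp1 and Pygl, 2149 and 1655.

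In ScapKO hepatocytes 5 of 8 genes were rhythmic, beside 19.1% of genes. Pklr in ScapKO hepatocytes read 597, 787 and 591 RPKTM at ZT4, 1362, 1207 and 982 at ZT10, 1558, 1507 and 1345 at ZT16, and 831, 812 and 1018 at ZT22. Every library at ZT10 and ZT16 but replicate 3 at ZT10 was above every library at ZT4 and ZT22, and JTK_CYCLE placed the peak at ZT16 with a ratio of 2.23. Slc2a2 read 2624, 3296 and 2454 at ZT4, 3719.5, 3813 and 3665 at ZT10, 3431, 3307 and 3829 at ZT16, and 2006, 2021 and 2527 at ZT22, with a peak at ZT13. Gys2 and Pck1 peaked at ZT10 and Fbp1 at ZT13, the Fbp1 call was lost without replicate 2 at ZT22, and the Pck1 call without replicate 2 at ZT10. With the series entered once Pklr and Pck1 remained (beside 4.06% of genes), and the limma test called Pklr and Slc2a2 (beside 1.85%). No Control library belongs to this table, so that these levels have no comparison with intact mice.

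**Figure D5:**
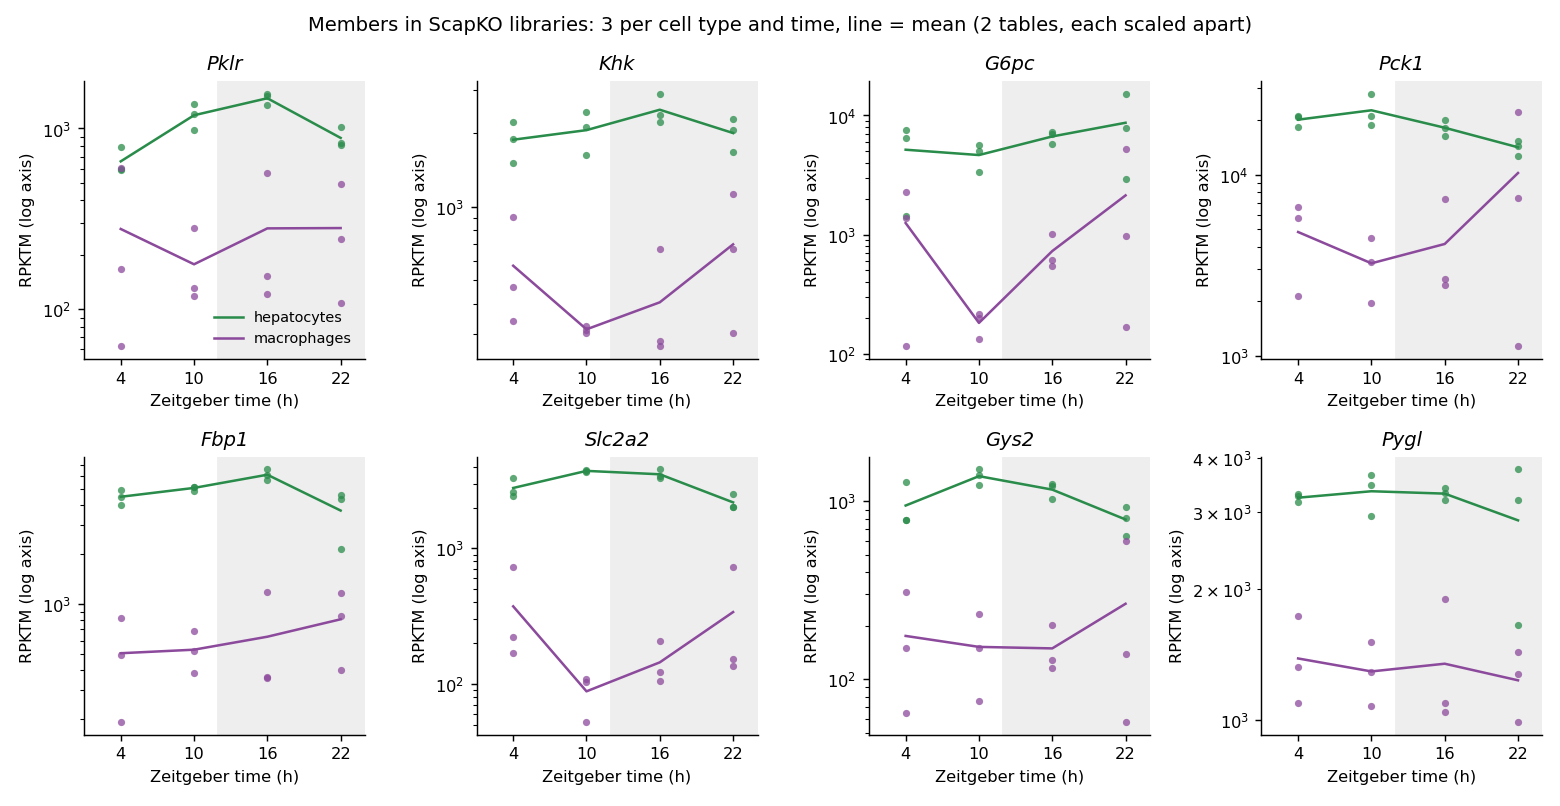
Level of the 8 genes (RPKTM, log axis) against ZT in ScapKO hepatocyte and LM libraries, which were normalized apart; points are libraries and lines join the means of 3. In hepatocytes Pklr is lowest at ZT4 and highest at ZT16.

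In ScapKO LM libraries the summed macrophage markers were 23553 to 147288 RPKTM and the hepatocyte markers 29437 to 181682. Pck1 averaged 5594 RPKTM, Pygl 1313, G6pc 1072, Fbp1 617, Khk 499, Pklr 254, Slc2a2 236 and Gys2 186. Replicate 2 at ZT22, with a mean correlation of 0.783, gave the highest Pck1, 22085, and the highest G6pc, 5250.2. Khk and Slc2a2 were rhythmic with a peak at ZT1, or 2 of 8 beside 21.4% of genes, the Khk call remaining in 7 of 12 cases with a library left out, and none of the 8 was with the series entered once (beside 2.3%) or in the limma test (beside 0.0%). The summed hepatocyte markers in these libraries had medians of 96061, 38995, 54844 and 100603 RPKTM at ZT4, ZT10, ZT16 and ZT22. Those of the macrophage markers were 111040, 131745, 135733 and 108376. The part of these markers in the rhythm calls was not tested.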

How the data were processed

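RNA-Seq was made by the authors from hepatocytes and liver macrophages (LMs) in 96 libraries. Per the labels and the study's methods, the authors aligned reads to mm9 with STAR and counted RefSeq genes with HOMER (versions not given in the sources used here), and deposited RPKM-type values, RPKTM (10 times RPKM), quantile normalized in 4 separate tables of 42322 transcripts. All columns of a table hold the same sorted values, so the sequencing depth is unknown. Groups came from the labels.

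Genes were read as the transcript of highest mean and kept where at least 3 libraries exceeded 5 RPKTM. Genotypes were compared with limma 3.58.1 (R 4.3.3) on log2(RPKTM + 1) with a mean-variance trend, a mean for each of the 12 genotype and time groups of a table, and Benjamini-Hochberg adjustment over all genes at 0.05; fold changes on this scale understate those of low genes. Contrasts of the mean over times, of single times and of the 24-h cosine and sine terms (an F test of the difference in daily pattern) came from the same fit. JTK_CYCLE was written anew in Python 3.11.15 after the study's settings, each series entered 2 times, with periods of 18 and 24 h; rhythmic genes had a best period of 24 h, an adjusted p under 0.05 over the 7 patterns tried, a ratio above 1.5 and 2 or more libraries over 5 RPKTM. The tests were tried on simulated data. The ScapKO tables were not compared with the others.

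The 8 members, the wider pathway lists and the marker lists were chosen with earlier results of these data known. Of the wider genes, the 6 called genes with the largest change in each hepatocyte comparison of means were named, and others of the same lists where a count needed it. Alternatives were a pseudocount of 0.1 or 5, no filter, all transcripts, a replicate block, only the genotypes compared, a marker score of the other cell type as a covariate, and each library left out in turn; median-ratio rescaling and leaving out the outlying libraries were chosen after seeing the data. Outlying libraries had a mean correlation with the rest of their table under 0.91 in hepatocytes and 0.8 in LMs. Sequences were read from the mm9 genome at the table's transcript starts, and windows for the shares from all transcript starts of the table. Some genes among those most like a member are not reported here.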

Additional observations from a re-analysis of the deposited data

How the results depend on the processing

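Leaving out a library gives ranges of genes called out of the 8. In hepatocytes RevScapTKO against Control gave 0 to 2 at ZT4, 0 to 2 at ZT10 and 0 to 1 at ZT16. RevScapTKO against RevDKO gave 0 to 3 at ZT4, 0 to 2 at ZT16 and 0 to 3 at ZT22. In LMs the mean of RevScapTKO against Control gave 0 to 1. Shares of all genes in each such fit, for levels and rhythm alike, are not given here. Over all alternatives, all hepatocyte genes called against Control ran from 237 to 3635 at ZT4, 288 to 729 at ZT10 and 232 to 800 at ZT16. Against RevDKO they ran from 187 to 2659 at ZT4, 116 to 382 at ZT16 and 116 to 384 at ZT22. Rhythmic genes were 0 to 2 in RevScapTKO hepatocytes, 0 to 3 in Control LMs, 0 to 3 in RevScapTKO LMs and 1 to 4 in ScapKO LMs. With the marker covariate 0 of 8 were called in each hepatocyte comparison that had a call, the means and single times alike. Of all genes, 1.78% at ZT4 and 2.33% at ZT10 were then called against Control. Against RevDKO 1.4% were called at ZT4 and 1.01% at ZT16. Without the outlying libraries the mean of RevScapTKO against Control gave 3, and single times gave 2 at ZT10 and 3 at ZT16 against Control and 0 at ZT4 and 2 at ZT16 against RevDKO; in LMs RevScapTKO against Control gave 0, and 0 were rhythmic in RevScapTKO hepatocytes. In hepatocytes without the outlying libraries, all genes called in RevScapTKO against Control were 31.0% for the mean, 5.5% at ZT10 and 4.51% at ZT16. Against RevDKO they were 3.18% at ZT4 and 1.85% at ZT16, and 15.9% of genes were rhythmic in RevScapTKO. Without a filter 0 of the 8 were called at ZT16 against RevDKO and 0 at ZT10 against Control. With only the genotypes compared in the fit, 0 were called in LMs in RevScapTKO against Control. With the series entered once, rhythmic genes were 1 in Control and 0 in RevScapTKO hepatocytes, 0 in Control and 0 in RevScapTKO LMs, 2 in ScapKO hepatocytes and 0 in ScapKO LMs. The limma 24-h test gave 2, 2 and 0 in Control, RevDKO and RevScapTKO hepatocytes, 0, 3 and 0 in the same genotypes of LMs, 2 in ScapKO hepatocytes and 0 in ScapKO LMs. The cause of these moves was not tested.

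Changes of sign arose among differences that were not called, with the exception of G6pc. G6pc in hepatocytes became 2.8e-05 against RevDKO and 0.22 against Control with the covariate. Slc2a2 in RevScapTKO hepatocytes against Control became 0.0038 on rescaling and 0.14 without the outlying libraries. In LMs without the outlying libraries, Slc2a2 became 0.21 in RevDKO against Control and −0.23 in RevScapTKO against RevDKO, and Pck1 became 0.21 in RevScapTKO against RevDKO. In LMs with the covariate, Pck1 became 0.23 in RevScapTKO against RevDKO, and against Control Slc2a2 became 0.56 and Khk 0.14; Slc2a2 was 0.014 on rescaling. With a library left out, log2 changes of RevDKO against Control in hepatocytes ran from −0.026 to 0.061 for Fbp1 and from −0.0082 to 0.18 for Pklr, and Slc2a2 in RevScapTKO against Control ran from −0.086 to 0.057. In LMs Pck1 in RevScapTKO against RevDKO ran from −0.48 to 0.39. Slc2a2 in LMs ran from −0.30 to 0.19 in RevDKO against Control. In RevScapTKO it ran from −0.21 to 0.27 against RevDKO and from −0.20 to 0.15 against Control.

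Same-numbered replicates of 2 genotypes deviated together with correlations of −0.15 to 0.28 in hepatocytes and −0.20 to 0.37 in LMs. The correlation was above 0.1 in 13 of 36 pairs in hepatocytes and 15 of 36 in LMs. The labels do not say whether a number marks a shared batch, and this was not tested. With the replicate block the 8 genes gave the same counts, 0, 6 and 6, for the hepatocyte means. All genes called with the block were 651, 3632 and 4927 in hepatocytes and 167, 574 and 836 in LMs, where they were 80, 419 and 524 without it. Over all alternatives, the genes called in the 3 hepatocyte means ran from 468 to 1086, from 330 to 6791 and from 806 to 9197, and in LMs from 41 to 475, from 308 to 1475 and from 354 to 1970. The upper ends came from counting every transcript in hepatocytes, and in LMs from leaving out Control replicate 3 at ZT22 (475) and from the marker covariate (1475 and 1970). A pseudocount of 0.1 and rescaling left the count of the 8 within 1.5 times of its value in the means of both cell types and in the single times and changes of rhythm in hepatocytes. A pseudocount of 5 and all transcripts, run for the means alone, did so there too. Depth is unknown and limits were not set from it.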

Other observations

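In the LM libraries the wider pathway lists showed few calls. Of 67 genes tested, 1, Got1, an aminotransferase of the malate-aspartate shuttle, rose in RevDKO against Control (log2 change 0.99, limma adjusted p = 0.0167), beside 0.574% of all genes called. In RevScapTKO against RevDKO 4 fell, beside 1.78% of all genes, namely Got1 (−1.45, limma adjusted p = 3.2e-05), Mdh1 (−0.80), which works in the same shuttle, Pdk1 (−0.96) and Pdk2 (−0.78), which restrain pyruvate dehydrogenase. In RevScapTKO against Control 3 fell, beside 1.38% of all genes, namely Mdh1 (−0.67), Pdk1 (−0.87) and the transketolase Tkt (−0.67). How these genes fared with the hepatocyte-marker covariate is not given here, and their levels in LMs and RNA from hepatocytes cannot be told apart.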
